A study of Rattus norvegicus with 232 samples.

Results

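Microglia are the resident macrophages of the brain, and the 10 genes described here are their commonly used markers. The members are Aif1, Cx3cr1, P2ry12, Tmem119, Csf1r, C1qa, C1qb, C1qc, Trem2 and Tyrobp. They were taken by name from a RefSeq gene table of whole brain RNA, and all 10 were found among its 20859 genes. The rats belong to the Hybrid Rat Diversity Panel, a set of inbred strains for genetic mapping. Here, 214 libraries came from 197 animals of 74 strains.

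The strains fall into 3 groups. The HXB/BXH family has 30 recombinant inbred strains, bred from BN-Lx/Cub and SHR/OlaIpcv, with 88 animals. The FXLE/LEXF family has 19 recombinant inbred strains, bred from F344/Stm and LE/Stm, with 43 animals. The remaining 25 inbred strains, progenitors included, have 66 animals. All rats were untreated, and the study describes naive young adult males, although a sex label stood on 148 of 232 samples. A strain had 3 animals in 54 cases, 2 in 15 cases and 1 animal in 5 cases. Those 5 strains, BUF/MnaMcwi, FXLE13/Stm, LEXF2B/Stm, LEXF9/Stm and LE/Stm, have no spread of their own. Values are on a log2 scale, so that 1 unit is a doubling, and they were averaged over libraries to 1 value per animal. The libraries were sequenced in 17 batches by their batch labels, and read depth is unknown because the table holds no counts.

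Microglia keep contact with neurons and survey the tissue. Csf1r is the receptor for the growth factors that keep microglia alive. Cx3cr1 is the receptor for the neuronal chemokine fractalkine, and P2ry12 is a purine receptor that guides microglial processes to released nucleotides. Tmem119 is a membrane protein found in the brain almost exclusively on microglia, and Aif1 encodes the cytoskeletal protein Iba1. Trem2 is a lipid-sensing receptor that signals through the adaptor Tyrobp. C1qa, C1qb and C1qc encode the chains of C1q, the starter of the classical complement cascade, which microglia make for the whole brain. In whole tissue, fewer microglia and less RNA per microglial cell cannot be told apart.

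In the rn6 build, the study's transcript annotation placed Aif1 on chromosome 20 from 5161333 to 5166252 and Cx3cr1 on chromosome 8 from 128681658 to 128754514. P2ry12 lay on chromosome 2 from 149404487 to 149482812, and Tmem119 on chromosome 12 from 48596089 to 48605704. Csf1r spanned 56415508 to 56477461 on chromosome 18. Trem2 lay on chromosome 9 from 14611535 to 14621921 and Tyrobp on chromosome 1 from 88875375 to 88879303. The C1q genes lie side by side on chromosome 5, in the order C1qb, C1qc, C1qa, and C1qb spanned 155246447 to 155252003. There the annotation joined C1qc to 19 reconstructed genes, and C1qa was not named.

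The upstream sequence of 5 members was listed in RefSeq on the GRCr8 build. The stretches before C1qb and C1qa are shown because the neighbouring C1q genes had the highest correlations of any members over strain means. No stretch for C1qc was listed. Both run 5′ to 3′ on the minus strand over the 250 bases before the start, C1qb at chr5:154407828-154408077 and C1qa at chr5:154419934-154420183. Capitals mark GAGGAA, the core of many sites of PU.1, the transcription factor of macrophages, on either strand.
C1qb: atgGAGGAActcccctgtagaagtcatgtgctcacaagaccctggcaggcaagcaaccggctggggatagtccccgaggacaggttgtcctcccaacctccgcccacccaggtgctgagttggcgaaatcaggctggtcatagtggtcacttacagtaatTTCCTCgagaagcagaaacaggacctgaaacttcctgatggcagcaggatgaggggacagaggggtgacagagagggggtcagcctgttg
C1qa: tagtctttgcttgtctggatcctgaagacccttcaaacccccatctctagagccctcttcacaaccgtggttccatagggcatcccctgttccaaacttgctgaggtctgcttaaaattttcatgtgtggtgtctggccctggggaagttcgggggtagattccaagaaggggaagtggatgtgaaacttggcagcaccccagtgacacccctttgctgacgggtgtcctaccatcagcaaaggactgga
The C1qb stretch held GAGGAA at 2 places, 247 to 242 and 90 to 85 bases before the start, while the C1qa stretch held none. Among the 5 members listed, 3 had a match (C1qb, Csf1r and Trem2), and 23.3% of all 33469 promoter stretches of this length had one. TATAAA was searched on both strands as well and was in none of the 5, against 12.9% of all stretches. A match is only a run of letters, and binding was not measured.

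The first question was how far the level of each member depends on strain. All 10 members passed the limma moderated F-test over strains at a 5% false discovery rate (Benjamini-Hochberg over all genes), as did 37.3% of all genes. Strain R2, the share of the sum of squares between animals that lies between strains, had a median of 0.596 over the members and 0.451 over all genes. With no strain effect at all, this layout gives an R2 of 0.372. R2 was above 0.5 for 9 members, and above that level for 28.4% of all genes.

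Tmem119 had the highest R2 of the members, 0.793 (adjusted p = 9.58e-19), and held place 350 among all genes. P2ry12 followed at 0.703 (adjusted p = 5.31e-11). The next 5 members lay close together, with Csf1r at 0.618, C1qa at 0.608, Tyrobp at 0.596, C1qc at 0.595 and Trem2 at 0.586. C1qb stood at 0.550 and Cx3cr1 at 0.534. Aif1 was the lowest at 0.488 (adjusted p = 0.0269). When each replicate number was left out in turn, 5, 6 and 9 members passed, where 15.9%, 14.4% and 29.1% of all genes did. Tmem119, P2ry12, C1qa and C1qc passed in all 3 of those fits, and Aif1 in none of them.

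**Figure D1:**
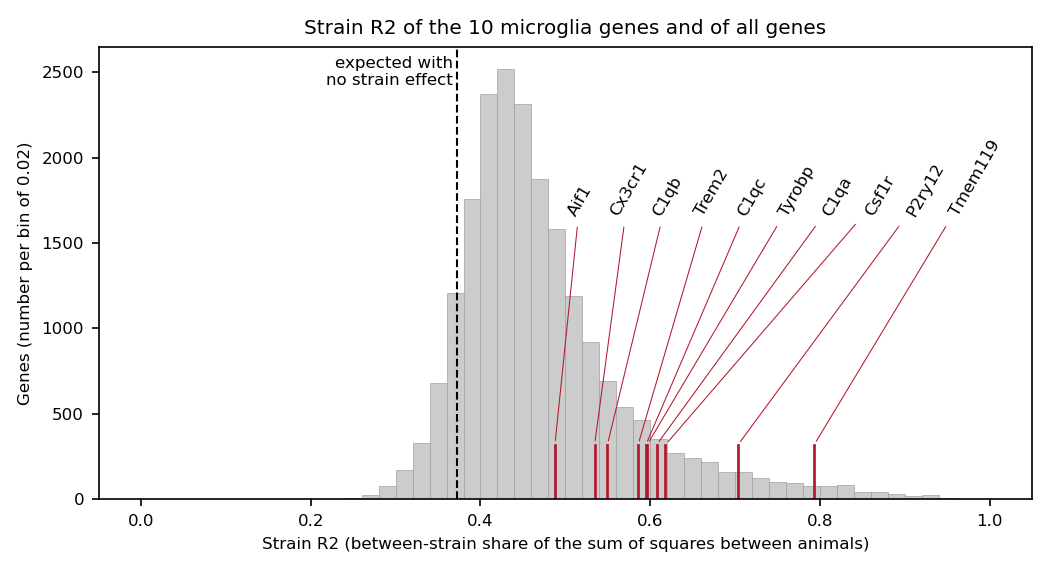
Number of genes (vertical axis) by strain R2 (horizontal axis, bins of 0.02) over 20859 genes in grey, with the 10 microglia genes as red lines. The dashed line is the value of 0.372 given by this layout with no strain effect, and the members run from 0.488 for Aif1 to 0.793 for Tmem119.

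Tmem119 spread over a 2.35-fold range of strain means, from 7.86 in HXB31/Ipcv to 9.09 in DA/OlaHsd. The SD between animals of a strain was 0.208. The 3 HXB31/Ipcv animals read 7.74, 8.04 and 7.80. FHH/EurMcwi was nearly as low, with 7.88, 7.87 and 7.95, and the 2 HXB10/Ipcv animals read 7.95 and 7.98. At the other end, the DA/OlaHsd animals read 9.15, 9.01 and 9.13, the HXB18/Ipcv animals 9.00, 9.00 and 9.15, and the LEXF1C/Stm animals 8.83 and 9.23. No animal of the 3 lowest strains overlapped any of the 3 highest, which is largely given by choosing the strains on these same values. Neighbours in the order were not separated, since the 10 lowest strain means ran only from 7.86 to 8.08 and the 10 highest from 8.93 to 9.09, spans close to the SD between animals.

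P2ry12 covered a similar range, 2.33-fold, from 8.73 in LEXF5/Stm to 9.95 in BN/NHsdMcwi, with an SD between animals of 0.201. The BN/NHsdMcwi animals read 10.19, 9.75 and 9.92, and the related BN-Lx/Cub animals 10.11, 9.39 and 9.55. The single BUF/MnaMcwi animal lay between them at 9.92. The LEXF5/Stm animals read 8.95 and 8.52, the HXB1/Ipcv animals 8.63, 8.75 and 8.97, and the BXH12/Cub animals 9.00, 8.89 and 8.47. Thus the order at the top was led by the BN substrains, which for Csf1r were instead among the 3 lowest strains, with means of 11.43 in BN-Lx/Cub and 11.45 in BN/NHsdMcwi.

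**Figure D2:**
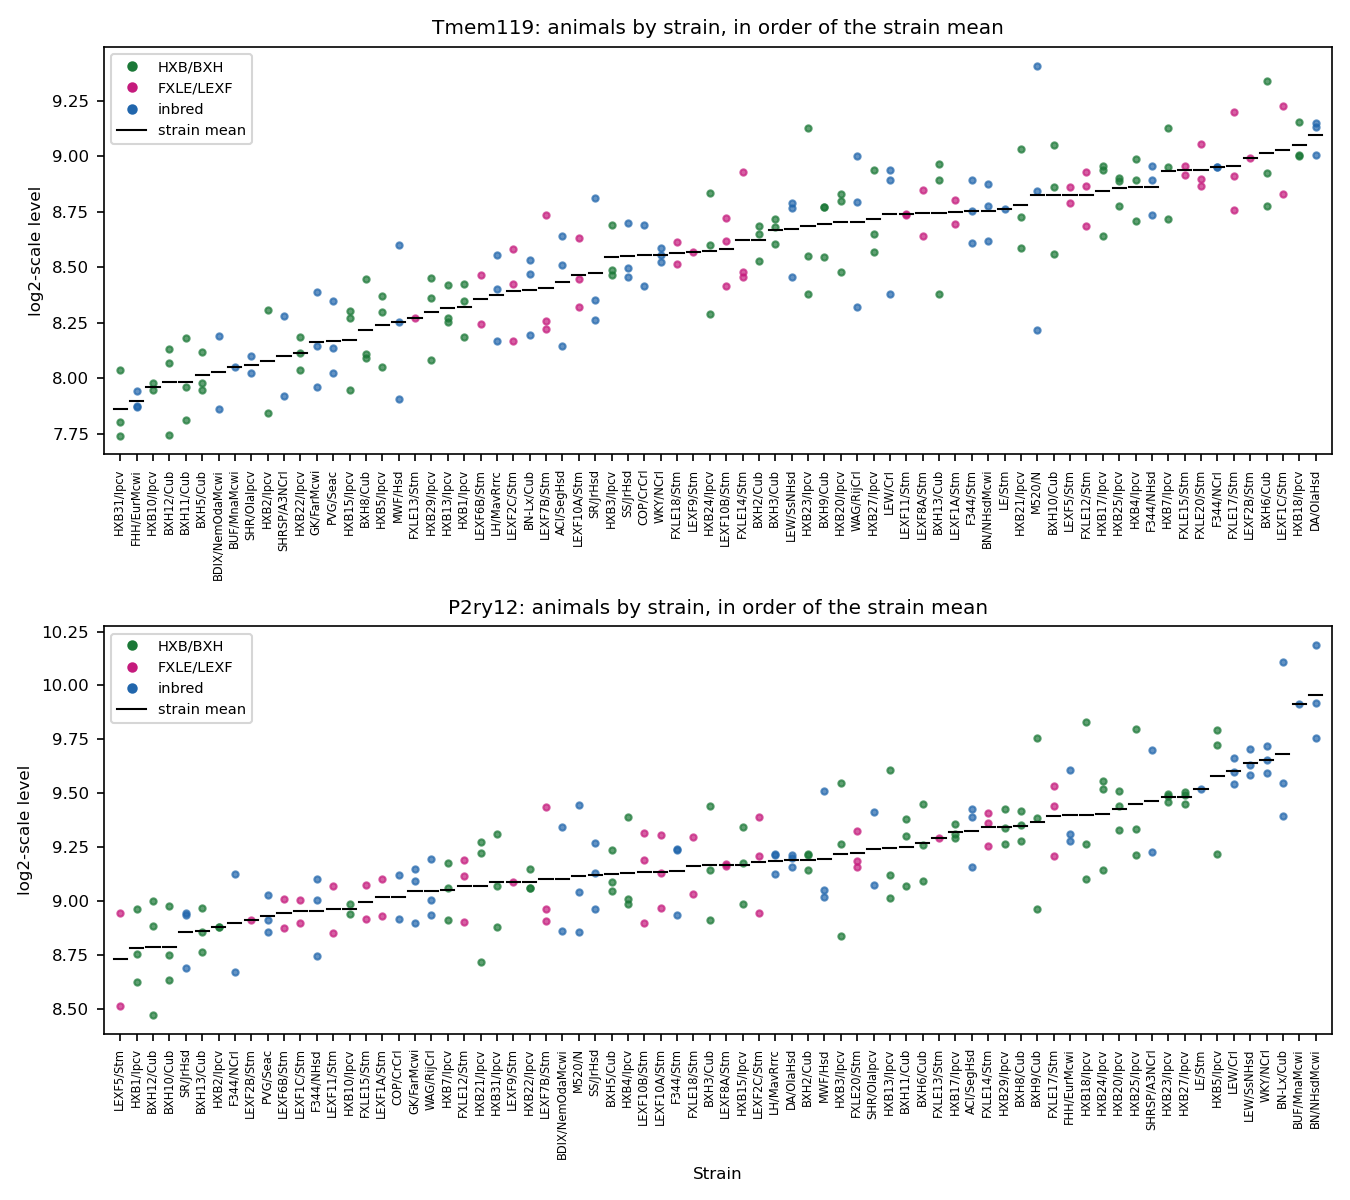
Log2-scale level (vertical axis) of Tmem119 and P2ry12 in 197 animals of 74 strains (horizontal axis), with strains in order of their mean. Points are animals coloured by panel and black bars are strain means, which run from 7.86 to 9.09 for Tmem119 and from 8.73 to 9.95 for P2ry12.

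The C1q chains shared several of their extreme strains with other members. C1qa ran from 9.66 in FXLE13/Stm to 10.60 in LEXF1C/Stm, a 1.92-fold range. The PVG/Seac animals, among the lowest, read 9.73, 9.66 and 9.60. Among the highest, the FXLE20/Stm animals read 10.52, 10.44 and 10.74 and the HXB3/Ipcv animals 10.54, 10.49 and 10.48. C1qc ran from 8.28 to 9.34 and C1qb, over 1.66-fold, from 9.15 to 9.88, all 4 ends being strains with 1 animal (FXLE13/Stm at the low ends, BUF/MnaMcwi and LE/Stm at the high ends). HXB27/Ipcv was among the 3 lowest strains for both C1qb and C1qc, with 2 of its 3 animals at 9.04 and 9.08 for C1qb and the other at 9.51.

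Trem2 covered 2.28-fold, from 7.01 in FXLE13/Stm to 8.20 in LE/Stm, although both ends were strains with 1 animal. The lowest strain with replicates was M520/N, where the animals read 7.20, 7.23 and 7.27. Tyrobp ran from 7.49 to 8.60, again with single animals at both ends, and its highest strain with replicates was FXLE20/Stm at 8.33, 8.39 and 8.40. Aif1 covered 1.71-fold, Cx3cr1 1.70-fold and Csf1r 1.44-fold.

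Strains with 1 animal took 16 of the 60 extreme places, counted as the 3 lowest and the 3 highest strains for each member. FXLE13/Stm was among the 3 lowest for 6 members, namely Cx3cr1, the C1q genes, Trem2 and Tyrobp. BUF/MnaMcwi was among the 3 highest for 6 members, and LE/Stm for 4. The LE/Stm animal also had a mean level of 18.4 over 8 liver genes, against a median of 7.55 in other animals, and the part of this in its microglia gene levels was not tested. A raised liver list, over 12, was found in 3 animals in all (LE/Stm, HXB10/Ipcv and BXH6/Cub), and low Y-linked genes, under 8, in the 3 LEW/Crl animals and 1 HXB17/Ipcv animal. Without these 7 animals all 10 members passed the test over strains (34.6% of all genes), and without the strains of 1 animal all 10 passed too (36.8% of all genes). Of strains with replicates, FXLE20/Stm was among the 3 highest for Aif1, C1qa, C1qc and Tyrobp, and LEXF1C/Stm for Tmem119, C1qa and C1qc.

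Strain effects were also tested inside each group of strains. Among HXB/BXH strains 6 members passed (P2ry12, Tmem119, C1qa, C1qc, Trem2 and Tyrobp), where 19.1% of all genes passed. Among FXLE/LEXF strains 5 members passed (Tmem119, Csf1r, C1qa, C1qb and C1qc), against 4.61% of all genes. Among the inbred strains 8 members passed, all but Aif1 and Cx3cr1, against 19.3% of all genes. Tmem119, C1qa and C1qc passed in all 3 groups. With sequencing batch as a covariate the counts were 9, 4 and 7, where 32.1%, 5.22% and 16.2% of all genes passed, and C1qb then missed the threshold among FXLE/LEXF strains and C1qc among the inbred strains. With the replicate number as a block, C1qa missed it among HXB/BXH strains and Csf1r among FXLE/LEXF strains, where 19.1% and 4.32% of all genes passed.

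For most members many HXB/BXH strains lay outside the range of their progenitors. C1qb lay above both BN-Lx/Cub (9.28) and SHR/OlaIpcv (9.35) in 28 of 30 HXB/BXH strains, and C1qc above both in 27. Over all genes the median was 7 strains above both, and 3.70% of genes had 27 or more. Tmem119 lay above both progenitors in 17 strains and below both in 5, while P2ry12 lay below both in 16 strains and above both in none, where the median over all genes was 7 strains below both. For Aif1, 28 strains lay between the progenitors. Both progenitor means rest on few animals, 3 for BN-Lx/Cub and 2 for SHR/OlaIpcv. Among the 19 FXLE/LEXF strains the members had a median of 1 strain above both F344/Stm and LE/Stm and 11 below both, against 4 and 5 over all genes, with LE/Stm resting on the animal with raised liver genes.

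The next question was whether the members share 1 strain pattern. Over the 74 strain means, the 45 pairs of members had a median Pearson r of 0.388 (Spearman rho 0.357), and 42 were positive. Over all pairs of genes the median was -0.002 and the upper 5% began at 0.427, a level that 18 member pairs passed. The members come from the same libraries and share their scaling, so these correlations are descriptions. The median r was 0.340 without the strains of 1 animal, 0.379 without the 7 animals that stood apart and 0.321 with libraries centred on their median.

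The C1q genes moved most closely together. Over strains, r was 0.853 for C1qa and C1qc, 0.820 for C1qa and C1qb, and 0.734 for C1qb and C1qc. For each of them, the nearest gene in the whole table was another C1q gene. Trem2 had an r between 0.503 and 0.590 to the C1q genes, and Trem2 and Tyrobp, receptor and adaptor, had an r of 0.547. That value was not particular to the pair, since Tyrobp had an r of 0.576 to C1qc and 0.554 to Aif1. Its r to the remaining members was lower. Csf1r and Cx3cr1 had an r of 0.598.

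Tmem119 and P2ry12 followed the other members least over strains, although they had the highest strain R2. Tmem119 had an r of 0.220 with the mean of the other 9 members, and P2ry12 of 0.173, where C1qc had 0.801 and C1qa 0.792. P2ry12 and the C1q genes had r between -0.04 and 0.187. With batch as a covariate the median of those 3 pairs was 0.307. P2ry12 and Aif1 had an r of 0.481. With the mean of 18 further microglia genes, described below, P2ry12 had an r of 0.586 over strains. The members ran there from 0.113 for Tmem119 to 0.618 for Cx3cr1, so P2ry12 did not stand apart from that list.

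**Figure D3:**
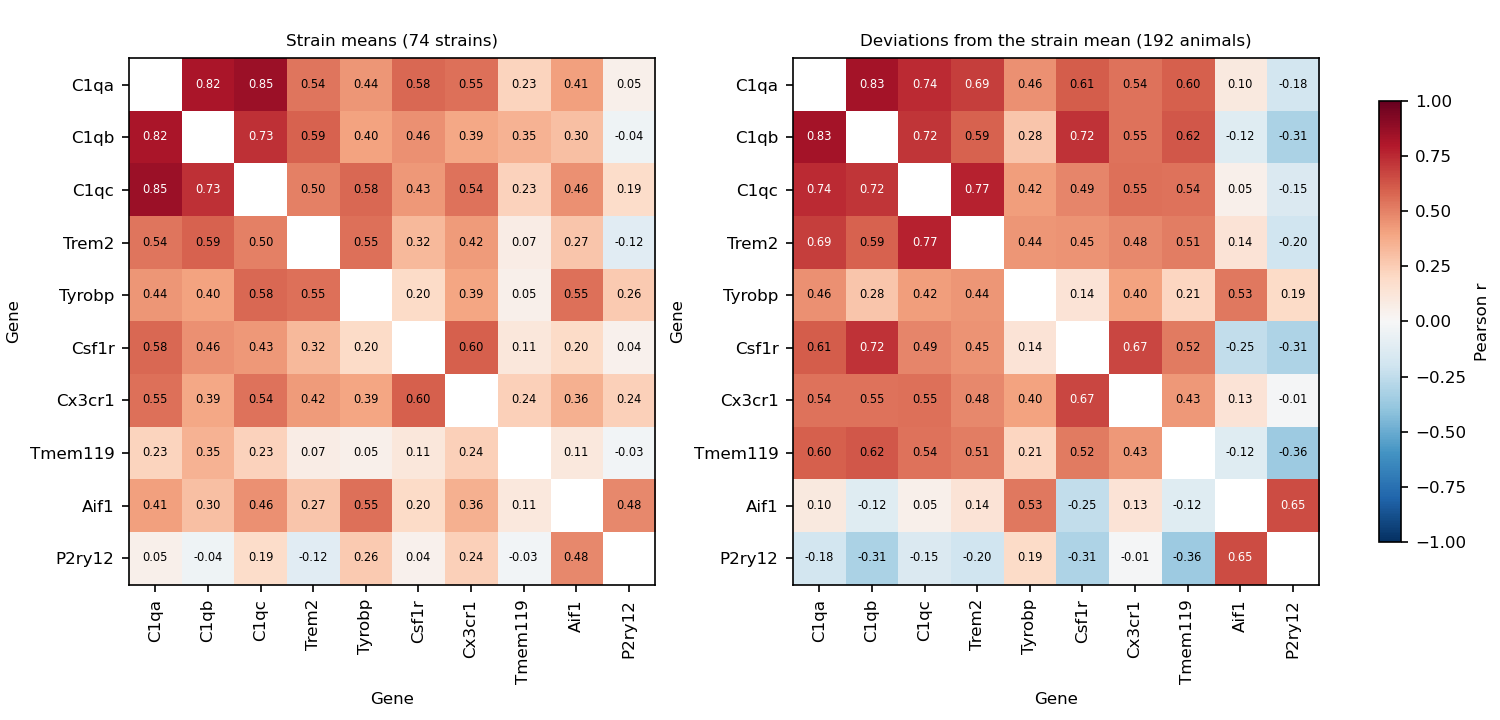
Pearson r between each pair of the 10 microglia genes (both axes), for strain means over 74 strains on the left and for deviations of 192 animals from their strain mean on the right, with the value in each cell. The block of C1qa, C1qb, C1qc and Trem2 is positive in both, and P2ry12 is near 0 or below with that block.

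Between animals of a strain most pairs of members were again positively correlated, but the set differed. For deviations of 192 animals from their strain mean, the 45 pairs had a median r of 0.452, and 35 were positive. All gene pairs had a median of 0, with the upper 5% beginning at 0.5, which 19 member pairs passed. The C1q pairs ran from 0.716 to 0.833. Tmem119 here moved with the others, with a median r of 0.509 to the 9 other members, against 0.111 over strain means. Aif1 went with them less, with an r of 0.184 to the mean of the other 9 members, against 0.534 over strain means, and of -0.25 to Csf1r. P2ry12 went the other way, with r from -0.31 to -0.15 to the C1q genes and of -0.36 to Tmem119, while P2ry12 and Aif1 had an r of 0.651.

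Repeat libraries of 1 animal hold no animal difference, so their spread was set beside that between animals of a strain. How much of the spread within strains has this source was not tested. SHR/OlaIpcv animal 1 was sequenced in 12 libraries of 12 batches. Its library SD for Tmem119 was 0.313, and the SD between animals within the other strains was 0.211, a ratio of 1.48. The ratio ran from 0.61 for Tyrobp to that value over the members, and was 1.00 for the median gene of the table. In the 6 libraries of SHR/OlaIpcv animal 4 the ratio was 0.46 for Tmem119 and ran from 0.39 for C1qc to 1.21 for Tyrobp, with 0.82 for the median gene. Across the 12 libraries of animal 1 the C1q pairs had a median r of 0.957.

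A single library weighed on this. The batch 11 library of that animal was the lowest of the 12 for 9 members, with Tmem119 at 7.28, C1qa at 9.01 and Trem2 at 7.09. P2ry12 was the exception at 9.22. Without it the ratio ran from 0.38 for Tyrobp to 1.03 for Tmem119, with a median of 0.81, and the C1q pairs kept a median r of 0.880 over 11 libraries. The 6 libraries of SHR/OlaIpcv animal 4 had a median r of 0.520 for the C1q pairs. Thus C1q genes also varied together between libraries of the same animal. Batch took 0.146 of the within-strain sum of squares for Tmem119 and between 0.0274 and 0.0844 for the other members. For 16 batches and 189 animals, no batch effect gives 0.0798 if strains are ignored. Strain means were removed here, so the level with no batch effect is not known. With batch as a covariate all 10 members passed the test over strains, as did 53.7% of all genes.

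The genes most like each member were named by the Pearson r of strain means over 74 strains. For Tmem119 the nearest gene was Selplg, which encodes the P-selectin ligand PSGL-1, with r = 0.801 and rho = 0.787. LOC102548245 at 0.536 and Ube3b at 0.528 came next. Selplg is the nearest gene of the table before Tmem119 on chromosome 12. Selplg was picked for its r over these same strains, so its values in parts of them are descriptions. By group of strains, r was 0.797 in HXB/BXH, 0.807 in FXLE/LEXF and 0.819 in the inbred strains. In the 10 strains lowest for Tmem119, Selplg ran from 8.57 to 9.28, and in the 10 highest from 9.35 to 9.67. This restates the same relation. Selplg itself passed the test over strains (R2 0.591, adjusted p = 3.18e-05 by limma).

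The other neighbours of Tmem119 had a lower r to it. Of the 10 nearest genes of the table, 5 on each side, Svop came second with an r of 0.403 and Cmklr1, a chemerin receptor also made by microglia, was at -0.46. P2ry12 and its neighbour P2ry13, another purine receptor of microglia, had an r of 0.699, and P2ry14 beyond it 0.447. The nearest genes to P2ry12 lay elsewhere, with Cmbl at 0.738, Clec4a3 at 0.727 and Gpr34, a further microglial receptor, at 0.726.

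**Figure D4:**
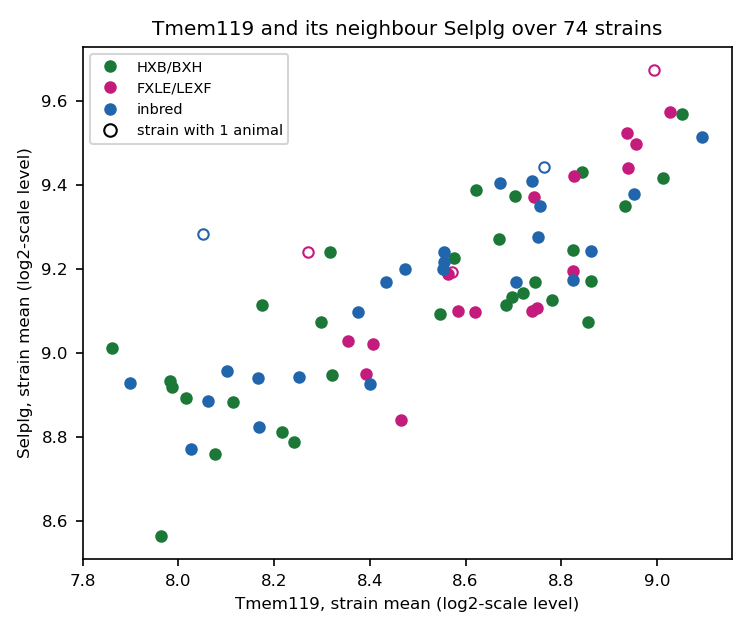
Strain mean of Selplg (vertical axis) against that of Tmem119 (horizontal axis), both on the log2 scale, for 74 strains coloured by panel, with open points for strains with 1 animal. Strains with a higher Tmem119 tend to have a higher Selplg (r = 0.801), with exceptions such as BUF/MnaMcwi at 8.05 for Tmem119 and 9.28 for Selplg.

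Csf1r was nearest to Itgb2 (r = 0.716), Slco2b1 (0.713) and Ptpn6 (0.671), the first a leukocyte integrin and the last a phosphatase of blood-lineage cells. Cx3cr1 was nearest to Pttg1ip (0.658), Gpr84 (0.636) and Dnase2 (0.625). Aif1 instead was nearest to ribosomal protein genes, Rps6 at 0.731, Rps3a at 0.731 and Rpl4 at 0.724, and Tyrobp to Rps19l2 at 0.726. Trem2 was nearest to Cdk2ap2 (0.750), Rack1 (0.733) and Psmb10 (0.719).

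The mean standardised level of the 10 members was most like Rplp0 (r = 0.738), Rac2 (0.737), Polr2i (0.730), Tmem176b (0.727) and Brms1 (0.714), with Unc93b1, Ifitm2, Pld4 and Atp5mc2 also among the nearest, the last at 0.696. Rac2, Unc93b1 and Pld4 are genes of immune cells, and Rplp0 is ribosomal. The mean of 78 ribosomal protein genes, a list drawn up after the likeness was seen, had an r of 0.621 with the members' mean over strains and of 0.628 within strains. Its part in the shared pattern was not tested.

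Other gene groups were read beside the members, and their counts stand against the 37.3% of all genes that passed the test over strains. All 18 of the further microglia genes passed the test over strains, from Itgam with an R2 of 0.847 to Spi1, which encodes PU.1, with 0.476, and their mean had an r of 0.720 with the members' mean over strains. Of 11 measured genes linked to activated microglia 7 passed, with Cd74, the invariant chain of class II presentation, highest at 0.829 and Apoe lowest at 0.387. Of 12 ligands and complement partners 8 passed, from C3 at 0.753 to Tgfb1 at 0.376. Border macrophage markers passed in 6 of 8 cases, from Cd163 at 0.615 to Stab1 at 0.409. Between a list's mean and the members' mean over strains, r was 0.516 for activated microglia genes, 0.507 for border macrophage genes and 0.483 for ligands and complement partners. It was 0.487 for astrocyte genes, 0.274 for choroid plexus genes, 0.219 for endothelial genes, 0.0966 for oligodendrocyte genes and -0.21 for neuron genes. For liver genes it was 0.158, but by rank the 8 single genes had a rho between -0.13 and 0.01 to the members' mean. For blood leukocyte genes r was 0.0751 over strains and 0.167 within strains, and for red blood cell genes 0.00901 over strains and 0.328 within strains.

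The test was passed by 4 of 7 blood leukocyte genes (S100a9 highest at 0.659), 4 of 4 red blood cell genes (Alas2 0.675, Hba-a1 0.629), 5 of 8 astrocyte genes (Aldh1l1 0.585, Slc1a2 0.430) and 7 of 8 oligodendrocyte genes (Mog 0.704, Mag 0.450). It was passed by 3 of 8 neuron genes (Snap25 0.486, Stmn2 0.360), 6 of 8 endothelial genes (Pecam1 0.691, Slco1a4 0.415), 2 of 8 choroid plexus genes (Clic6 0.493, Otx2 0.395) and 8 of 8 liver genes (Hp 0.755, Apoa1 0.517). The 78 ribosomal protein genes passed in 21 cases (Rpl37 highest at 0.921), a share of 26.9% against 37.3% of all genes.

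Named pairs of strains were then compared in the fit over all strains. In WKY/NCrl, the normotensive relative of the hypertensive SHR/OlaIpcv, all 10 members were higher than in SHR/OlaIpcv, with a median difference of 0.45 on the log2 scale and 0.01 over all genes. None passed at a 5% false discovery rate, where 0.825% of all genes did. At an unadjusted p under 0.05, 8 members passed, as did 8.49% of all genes. In every member each of the 3 WKY/NCrl animals lay above both SHR/OlaIpcv animals, as for 22.2% of all genes.

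Tyrobp came nearest to the threshold. It read 8.22, 8.33 and 8.40 in WKY/NCrl and 7.75 and 7.80 in SHR/OlaIpcv, a difference of 0.54 ± 0.15 (SE, n = 3 and 2, adjusted p = 0.0519 by limma). Aif1 read 9.07, 9.09 and 9.03 against 8.54 and 8.48, a difference of 0.55 ± 0.16 (SE, adjusted p = 0.0884 by limma). For both genes all 18 single SHR/OlaIpcv libraries lay below the lowest WKY/NCrl animal, and likewise for C1qb and C1qc. For the other members 17 of the 18 libraries did, or 15 for Csf1r. These libraries are repeats of 2 animals, and the share of all genes with this separation was not obtained, so it is only a description. Of these strains, batch 10 by the batch label held 2 WKY/NCrl libraries and 1 of SHR/OlaIpcv. There all 10 members were higher in WKY/NCrl, by a median of 0.58. Within batch 11 (1 library each) all 10 were higher too, by a median of 0.91. The SHR/OlaIpcv library of batch 11 was the lowest of the 12 of its animal for 9 members. The differences over all genes within these batches were not obtained. The SHR/OlaIpcv library was of animal 1 in both batches, and the titles of the 2 WKY/NCrl libraries of batch 10 name another batch. Without the batch 11 library of SHR/OlaIpcv animal 1 the median difference over members was 0.44. In the older Ensembl 96 table, with 3 SHR/OlaIpcv libraries that include the batch 11 library of animal 1, all 10 members passed, as did 4504 of 18309 genes. In the later Ensembl table, 1 member passed, Tyrobp at 0.52 (adjusted p = 0.00688 by limma), as did 177 of 18644 genes. Of the other listed genes, Ctss, a lysosomal protease of microglia, was higher in WKY/NCrl by 0.48 (adjusted p = 0.0279 by limma), and Kdr, an endothelial receptor, was lower by a log2 difference of -0.55 (adjusted p = 0.0382 by limma).

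**Figure D5:**
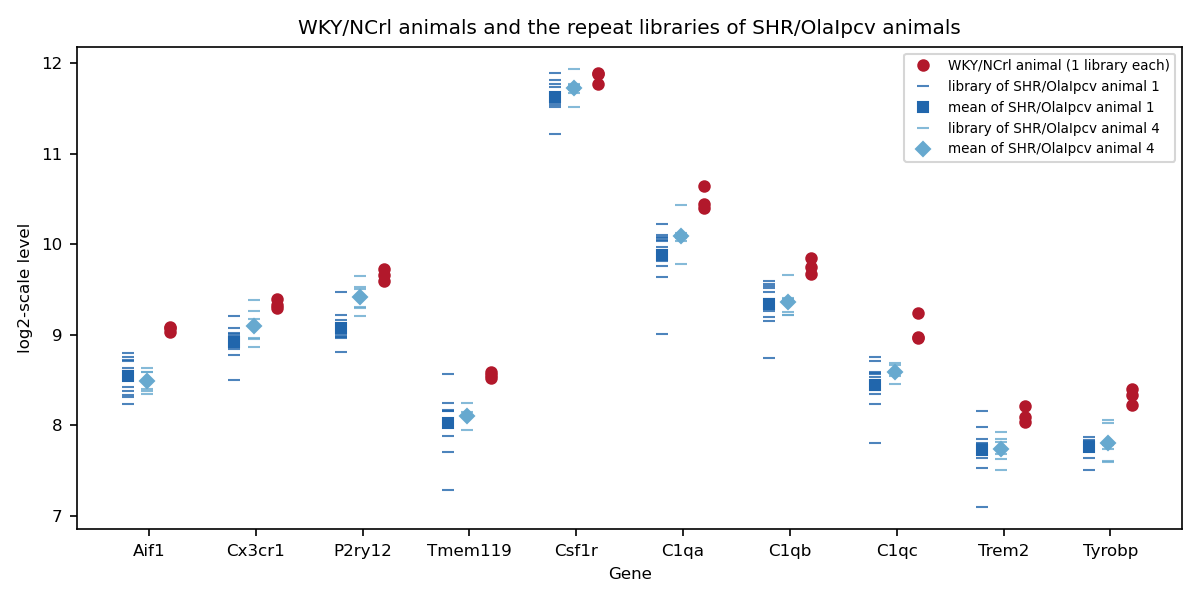
Log2-scale level (vertical axis) of the 10 microglia genes (horizontal axis) in 3 WKY/NCrl animals (red) and in the repeat libraries (dashes) and means (filled symbols) of SHR/OlaIpcv animals 1 and 4. All WKY/NCrl animals lie above both SHR/OlaIpcv means, and the lowest dash of animal 1 is its batch 11 library for 9 of the 10 genes.

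In DA/OlaHsd against PVG/Seac, strains that differ in their response to neuroinflammation, Tmem119 was higher in DA/OlaHsd. It read 9.15, 9.01 and 9.13 against 8.13, 8.35 and 8.02, a difference of 0.93 ± 0.17 (SE, n = 3 and 3, adjusted p = 7.37e-05 by limma). It was the only member past the threshold, where 1.37% of all genes were. The groups did not overlap for 7 members, all higher in DA/OlaHsd, as for 9.93% of all genes. At an unadjusted p under 0.05 there were 4 members (Tmem119, Csf1r, C1qa and C1qb), against 8.17% of all genes. C1qa read 10.19, 10.13 and 10.14 in DA/OlaHsd and 9.73, 9.66 and 9.60 in PVG/Seac, a difference of 0.49 ± 0.18 (SE, adjusted p = 0.261 by limma).

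Selplg was higher in DA/OlaHsd as well, by 0.69 ± 0.18 (SE, adjusted p = 0.0243 by limma), as were Itgam, an integrin chain of myeloid cells, by 0.50 (adjusted p = 0.0234) and complement C3 by 0.85 (adjusted p = 0.0207). The strains shared no sequencing batch, so batch and strain cannot be told apart within the pair. With batch as a covariate fitted over all strains Tmem119 stayed past the threshold at 0.83, and Csf1r passed as well with a difference of 0.66, where 192 of 20859 genes passed.

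In F344/NHsd against LEW/SsNHsd, strains known for unlike stress responses, P2ry12 was lower in F344/NHsd. The animals read 8.75, 9.01 and 9.11 in F344/NHsd and 9.71, 9.63 and 9.59 in LEW/SsNHsd, a log2 difference of -0.69 ± 0.16 (SE, n = 3 and 3, adjusted p = 0.00757 by limma). The groups did not overlap for P2ry12, nor for Tyrobp, also lower in every F344/NHsd animal, as for 7.95% of all genes. All 6 libraries were of batch 11 by the batch label, while their titles name other batches. P2ry12 was the only member past the threshold, where 0.959% of all genes were. The call was lost without F344/NHsd animal 1, with a difference of -0.59, and without LEW/SsNHsd animal 1, with a difference of -0.65. The other members differed by between -0.23 for Tyrobp and 0.19 for Tmem119. Itgam was higher in F344/NHsd by 0.53 (adjusted p = 0.0185 by limma) and Slc2a5, the fructose transporter of microglia, lower by a log2 difference of -0.49 (adjusted p = 0.0234 by limma).

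No member passed in BN-Lx/Cub against SHR/OlaIpcv, from which the HXB/BXH strains were bred, where 4.51% of all genes did. At an unadjusted p under 0.05 there were 3 (Aif1, P2ry12 and Csf1r), as for 19.2% of all genes. Csf1r was lower in BN-Lx/Cub, with animals at 11.10, 11.73 and 11.45 against 11.63 and 11.72, and the groups overlapped. Aif1 and Tmem119 lay higher in every BN-Lx/Cub animal than in both SHR/OlaIpcv animals, as for 19.2% of all genes, and Trem2 lay lower in every one, as for 19.6% of all genes. The call depended on 1 animal, since without BN-Lx/Cub animal 2 these 3 members passed, Aif1 at 0.53, P2ry12 at 0.58 and Csf1r at -0.40, while the count over all genes went from 940 to 1777. The direction of Tmem119, 0.34 higher in BN-Lx/Cub, turned to -0.07 with batch as a covariate, while in the Ensembl 96 table Tmem119 was higher by 0.71 (adjusted p = 0.000193 by limma) and was the 1 member past the threshold, where 801 of 18309 genes were. Within batches 3, 4 and 6 the median difference over members was -0.04, 0.24 and -0.03. Tmem119 was higher in BN-Lx/Cub in each of them, by 0.19, 0.73 and 0.45, always against 1 library of SHR/OlaIpcv animal 1. Of the other microglia genes, Olfml3 and Slc2a5 were lower in BN-Lx/Cub, by log2 differences of -0.53 and -0.50. Of the activated microglia genes Cd74 and Gpnmb were higher by 0.75 and 0.36, and of the complement partners C1s by 0.48 (all past the threshold). All 4 red blood cell genes were lower there, Alas2 by -1.49, Hba-a2 by -1.37, Hba-a1 by -1.28 and Hbb by -1.08, and Pf4, listed with border macrophages and also a platelet gene, by -0.74. Mobp of oligodendrocytes (0.72), Snap25 of neurons (0.54) and Kdr (-0.71) passed as well. The part of blood or cell makeup in the members' values was not tested.

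No member passed in SS/JrHsd against SR/JrHsd, the Dahl salt-sensitive and salt-resistant strains, where 0.988% of all genes did. The median difference over members was near 0. Within batch 8 it was -0.15, with 3 members higher in SS/JrHsd, and within batch 11 it was 0.18, with 9 higher. The title of an SS/JrHsd library counted in batch 11 names batch 8. No member had an unadjusted p under 0.05, against 10.1% of all genes. P2ry12 alone did not overlap, at 9.13, 9.27 and 8.96 against 8.69, 8.95 and 8.94, a difference of 0.26 ± 0.16 (SE, adjusted p = 0.670 by limma), and every SS/JrHsd animal lay above every SR/JrHsd animal for 7.63% of all genes. Partners of C1q did differ, with the complement proteases C1r higher in SS/JrHsd by 0.48 ± 0.11 (SE, adjusted p = 0.0122 by limma) and C1s by 0.63 ± 0.13 (SE, adjusted p = 0.0018 by limma). Olfml3 (0.46), the galectin gene Lgals3 (0.63) and the macrophage mannose receptor Mrc1 (0.44) also passed. The C1q chains themselves differed by -0.12 for C1qa, -0.03 for C1qb and -0.18 for C1qc, and in the Ensembl 96 table by 0.05, 0.08 and -0.01.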

How the data were processed

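Whole brain total RNA of untreated rats was sequenced after ribosomal RNA depletion with a stranded kit. The study split brains sagittally and extracted RNA from part of each. The deposited gene tables of the authors hold log2-scale values per library. For the older Ensembl 96 table the authors trimmed reads with cutadapt 1.9.1, removed ribosomal reads with Bowtie2, mapped the rest with HISAT2 to strain-specific rn6 genomes, quantified with RSEM, removed 1 factor of unwanted variation and took the DESeq2 regularized log. The submitters' processing notes list Bowtie2 2.3.4.3 and 2.4.5, HISAT2 2.1.0 and 2.2.1, StringTie 1.3.5 and 2.2.1 and RSEM 1.3.1 and 1.3.3, with no role or order. The build and scaling of the RefSeq table used here are not given in the sources used here. Its library medians lay between 8.18 and 8.42, and 5 values in 3 genes exceeded 30. No counts are in these tables, so depth per library is unknown.

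Of 20932 rows, 73 spike-in controls were removed. Strains and batches were taken from the labels, and libraries of 1 animal were averaged (3 animals had more than 1). Where a title named another sequencing batch, as for libraries of several named pairs, the batch label was used. For 1 library of LEXF9/Stm the column name held another batch than the label, and the label was used. Animals are taken as replicates as labelled. Strain effects and strain differences were fitted with limma 3.58.1 in R 4.3.3 on all 20859 genes and 197 animals, with strain as the only factor, and p-values were adjusted by Benjamini-Hochberg. R2 was computed in R from the same fits, and correlations in Python 3.11.15. The fit was tested on simulated data: 100 percent of 100 genes with a between-strain variance share of 0.5 were called, and 61 and 95 percent of 100 genes each with log2 differences of 0.5 and 1 in DA/OlaHsd minus PVG/Seac.

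Named genes were all members, the 10 genes most like their mean and the 3 nearest to each member, the highest and lowest R2 of each other list and list genes past 5% in a named pair, with the 3 lowest and highest strains of each member. Svop, Cmklr1, P2ry13 and P2ry14 were named as chromosomal neighbours after their values were seen. The members and lists were chosen with earlier results of these data known. Same-numbered SS/JrHsd and SR/JrHsd animals deviated together (r from 0.197 to 0.555 over all genes), so the replicate number was also fitted as a block, and the pairing comes from the titles' numbers alone. Alternatives were batch, the block, left-out replicates, 1 library per animal, median centring, higher-level genes, left-out strains and both Ensembl tables. Some genes that these rules name are not reported here. Neighbours and promoters came from RefSeq tables on GRCr8.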

Additional observations from a re-analysis of the deposited data

How the results depend on the processing

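Across the alternatives, 177 values or counts that answer a comparison stayed on their side of the threshold or within their range, and 47 moved. For the strain effects of members, the correlations that involve C1q genes, and member differences in a strain pair that had an unadjusted p under 0.05 or no overlap, 504 values stayed, 16 gained a call, 14 lost it, 2 turned direction and 1 correlation moved (P2ry12 with the C1q genes over strains, 0.307 with batch as a covariate); smaller differences were not counted and can turn too. The replicate number as a block left 10 members past the test over strains (7985 genes). It gave 410 genes in BN-Lx/Cub minus SHR/OlaIpcv and 98 in WKY/NCrl minus SHR/OlaIpcv. It lost C1qa within HXB/BXH (5 members, 19.1% of all genes) and Csf1r within FXLE/LEXF (4 members, 4.32% of all genes). The block changed no member's call in a strain pair. With batch as a covariate, 6694 genes passed within HXB/BXH, 2 members and 192 genes passed in DA/OlaHsd minus PVG/Seac, and Tmem119 turned to -0.0697 in BN-Lx/Cub minus SHR/OlaIpcv. With only genes above the median level, 3579 genes passed over strains, and 469 (BN-Lx/Cub minus SHR/OlaIpcv), 52 (WKY/NCrl minus SHR/OlaIpcv), 33 (F344/NHsd minus LEW/SsNHsd), 59 (DA/OlaHsd minus PVG/Seac) and 86 (SS/JrHsd minus SR/JrHsd) in the pairs; fewer genes were tested there. With 1 library per animal, 548 genes passed in BN-Lx/Cub minus SHR/OlaIpcv.

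In the oldest Ensembl table the members' median R2 was 0.763, 1 member (Tmem119) and 801 genes passed in BN-Lx/Cub minus SHR/OlaIpcv, where Csf1r turned to 0.0550, Cx3cr1 to 0.02, C1qa to 0.06 and C1qb to 0.18, 10 members and 4504 genes passed in WKY/NCrl minus SHR/OlaIpcv, and 767 genes in SS/JrHsd minus SR/JrHsd. In the later Ensembl table, 408 genes passed in BN-Lx/Cub minus SHR/OlaIpcv, 1 member in WKY/NCrl minus SHR/OlaIpcv, and 87 genes and 0 members in F344/NHsd minus LEW/SsNHsd, where P2ry12 had an adjusted p of 0.0536 by limma with 2 LEW/SsNHsd animals; Aif1 missed the test over strains there (adjusted p = 0.0544 by limma). These tables hold other animals and genes, and the cause was not tested. DA/OlaHsd minus PVG/Seac could not be had from the oldest table, which has no PVG/Seac animal.

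Leaving out 1 replicate number at a time gave 3003 to 6065 genes and 5 to 9 members over strains, with a median R2 of 0.678 to 0.754, where the layout alone gives 0.539 to 0.554 and the median gene had 0.588 to 0.628. Leaving out 1 animal of a pair gave 202 to 1777 genes and 0 to 3 members in BN-Lx/Cub minus SHR/OlaIpcv, 37 to 121 genes in WKY/NCrl minus SHR/OlaIpcv, 124 to 155 genes and 0 to 1 members in F344/NHsd minus LEW/SsNHsd, 159 to 216 genes in DA/OlaHsd minus PVG/Seac and 55 to 348 genes in SS/JrHsd minus SR/JrHsd. With 1 SHR/OlaIpcv animal left, that animal is assumed to vary like the other strains. Depth is unknown, so its part in low-level genes was not tested.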
